A study of Homo sapiens with 30 samples.

Results

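The comparison described here is between A549 cells given the high dose of an ethanol extract of Palmul-tang and A549 cells given vehicle. Its libraries were chosen by their labels alone: 3 labelled as the 500 µg/mL dose and 3 labelled as vehicle, 6 of the 30 libraries of the study. The treated cells received a 70% ethanol extract of Palmul-tang for 24 h. The vehicle cells received DMSO for the same 24 h, which the labels give as 0.1% and the series text as 2%. The labels give no DMSO percentage for the treated cells, so a difference in solvent cannot be told apart from the extract. A549 is an established line from a human non-small cell lung carcinoma, so each group is a single cell line in culture. The study measured RNA abundance after 4 tonifying formulas at 20, 100 and 500 µg/mL. Palmul-tang, a Korean decoction for fatigue and debility, joins the herbs of Samul-tang with those of Sagunja-tang. No label says that replicates came from separate cultures, so every p-value measures the spread between libraries, which may be technical. Of 60675 gene rows, 17701 had enough counts to be tested.

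Plant extracts carry many flavonoids and related compounds that cells treat as foreign chemicals. The aryl hydrocarbon receptor (AhR) is a cytosolic sensor of such compounds: once bound it moves to the nucleus and switches on enzymes that oxidise them, with CYP1A1 and CYP1B1 as its best known targets. NRF2, encoded by NFE2L2, is the transcription factor of the response to electrophiles and oxidants, and it drives glutathione synthesis and quinone reduction. A549 cells carry an inactivating mutation of KEAP1, the inhibitor of NRF2, so that NRF2 targets are already abundant in untreated cells of this line.

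The identity of the line was checked first. Keratins and detoxifying enzymes typical of A549 were abundant in all 6 libraries, with the keratin gene KRT8 at 3396 to 4400 CPM and the aldo-keto reductase gene AKR1B10 at 3528 to 4565 CPM. CPM are counts scaled to a common library size by the TMM method, and they compare a gene between libraries, not one gene with another. The leukocyte gene PTPRC was at 0.0684 to 0.209 CPM, and the endothelial gene PECAM1 at 0.152 to 0.265. The collagen gene COL1A1, also checked as a gene that should be near 0, was higher, at 1.04 to 2.26 CPM. Summed over 11 leukocyte markers the level was 26.7 to 31.2 CPM in the vehicle and 19.8 to 25.7 at the high dose. Over 8 endothelial markers it was 18.3 to 19.9 and 17.3 to 18.3 CPM, so these lists were low but not empty. Totals were 30439047 to 33053783 counts in the high-dose libraries and 23986637 to 30217580 in the vehicle libraries. The correlation of log CPM was 0.9913 to 0.992 within the high dose and 0.9899 to 0.9906 within the vehicle.

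The vehicle libraries stood apart from all 27 libraries of extract-treated cells in a property of the transcripts rather than of any pathway. Genes were ranked by the GC content of their longest transcript, and each library's deviation from the mean of all libraries was compared between the quintile of genes richest in GC and the quintile poorest in it. That difference was 0.34 to 0.47 on the log2 scale in the 3 vehicle libraries, −0.18 to 0.08 in the 27 extract libraries, and −0.15 to −0.03 in those of the high dose. The share of counts from mitochondrial DNA did not separate the groups, at 15.2% to 18.6% in the vehicle and 15.5% to 18.9% at the high dose. A further fit had GC content and length of each gene as offsets per library. The counts of gene groups at the high dose against vehicle are given below with and without these offsets, and a gene reported below as called in that comparison kept its call and direction with them unless a loss is stated. The high dose was also set against the low dose, which holds no vehicle library. Within these libraries, the GC shift and exposure to an extract cannot be told apart.

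At the high dose, 6574 of 17701 genes (37.1%) differed from vehicle, 3366 of them higher (19.0%) and 3208 lower (18.1%), by edgeR's quasi-likelihood test with Benjamini-Hochberg adjustment and a threshold of 0.05. Most of these differences were small: the median size among them was 0.28 on the log2 scale, and 87.8% were under 0.5. A difference of at least 1 was found for 63 genes above and 122 below vehicle. The medium and low doses share the same vehicle libraries, where 6700 genes (37.9%; 19.4% higher and 18.5% lower) and 6372 genes (36.0%; 18.2% higher and 17.8% lower) differed. The high dose differed from the low dose at 615 genes (3.47%), of which 258 were higher (1.46%) and 357 lower (2.02%). That last count rested in part on single libraries: it was 351 without high-dose replicate 1 and 371 without low-dose replicate 3.

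With the offsets, 2774 of 17570 genes (15.8%) differed between the high dose and vehicle, 1681 higher (9.57%) and 1093 lower (6.22%). Of these, 1858 were called in the same direction without offsets, 858 were called with them alone, and 58 changed direction. Genes that differed from vehicle and also from the low dose in the same direction numbered 137 higher and 184 lower. With the offsets in the comparison with vehicle, 90 and 127 of these remained called, among them CYP1B1, ALDH3A1 and ID3. Without offsets, 29 genes were higher than vehicle but lower than the low dose, and 23 were lower than vehicle but higher than the low dose. Both comparisons use the same high-dose libraries, so part of the agreement between them was built in. The medium and low doses against vehicle gave 15.0% (9.20% higher and 5.78% lower) and 15.3% (8.83% and 6.45%) with offsets, and the high against the low dose 4.35% (2.11% and 2.24%).

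**Figure D1:**
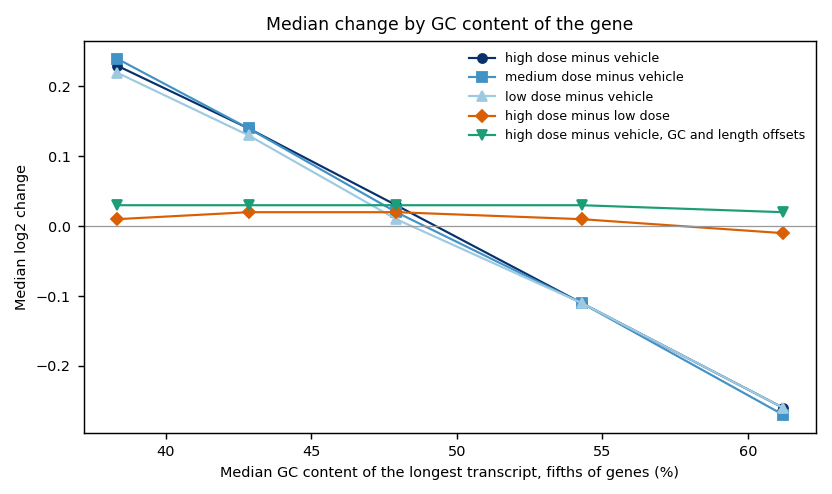
Median log2 change (vertical axis) in quintiles of 2238 genes each, placed at the median GC content in percent of their longest transcript (horizontal axis), for genes whose mean log2 CPM was 2 or more. The 3 comparisons with vehicle run from 0.22 to 0.24 in the quintile poorest in GC down to −0.27 to −0.26 in the richest, while the high dose against the low dose stays between −0.01 and 0.02 and the high dose against vehicle with offsets between 0.02 and 0.03.

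In the quintile of genes poorest in GC, 1543 of 2238 were called higher than vehicle and 20 lower, and in the richest quintile 10 were higher and 1626 lower. The plot of median change by GC content shows that the 3 doses followed nearly the same line. The median GC content is given below for several lists that are rich or poor in it. By length the medians ran from −0.08 in the shortest quintile to 0.09 in the longest.

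The promoters of 3 AhR targets and of 1 NRF2 target whose RNA differed from vehicle are shown here, since the results begin with these groups. Each sequence is from RefSeq on GRCh38.p14, runs 5′ to 3′ on the strand of its gene from 250 bases before the start site to 50 after it, and is in lower case with motif matches in capitals. In the first 3 the capitals mark the core of the xenobiotic response element bound by AhR, GCGTG on either strand (CACGC when read on the opposite strand). In the last they mark the core of the antioxidant response element bound by NRF2, TGACNNNGC on either strand.
CYP1A1, chr15:74725479-74725778, minus strand: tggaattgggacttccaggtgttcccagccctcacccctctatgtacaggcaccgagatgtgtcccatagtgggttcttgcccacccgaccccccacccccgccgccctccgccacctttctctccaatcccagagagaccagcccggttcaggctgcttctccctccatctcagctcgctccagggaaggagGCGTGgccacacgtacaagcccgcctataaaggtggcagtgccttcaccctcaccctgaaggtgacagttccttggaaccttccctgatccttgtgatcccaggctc
AHRR, chr5:321464-321763, plus strand: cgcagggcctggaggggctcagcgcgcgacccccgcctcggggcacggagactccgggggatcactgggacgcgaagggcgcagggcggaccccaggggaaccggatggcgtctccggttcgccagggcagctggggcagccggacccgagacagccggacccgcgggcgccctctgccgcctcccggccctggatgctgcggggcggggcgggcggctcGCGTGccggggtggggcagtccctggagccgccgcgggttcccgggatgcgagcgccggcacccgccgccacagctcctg
TIPARP, chr3:156674340-156674639, plus strand: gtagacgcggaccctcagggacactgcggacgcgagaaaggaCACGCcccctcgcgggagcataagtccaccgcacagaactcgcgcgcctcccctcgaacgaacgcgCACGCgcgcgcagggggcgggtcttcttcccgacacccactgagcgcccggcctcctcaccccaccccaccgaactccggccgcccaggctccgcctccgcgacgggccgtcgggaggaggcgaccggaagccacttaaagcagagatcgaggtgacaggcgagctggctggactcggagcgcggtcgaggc
GCLM, chr1:93909381-93909680, minus strand: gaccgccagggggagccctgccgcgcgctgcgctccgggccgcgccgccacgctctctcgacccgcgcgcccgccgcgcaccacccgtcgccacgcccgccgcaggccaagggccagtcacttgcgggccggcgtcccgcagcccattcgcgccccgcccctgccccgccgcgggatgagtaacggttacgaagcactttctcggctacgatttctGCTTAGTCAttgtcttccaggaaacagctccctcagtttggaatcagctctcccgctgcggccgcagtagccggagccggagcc

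The CYP1A1 window holds 1 match to GCGTG, 57 bases before the start site, the AHRR window 1 match at 30 bases before it, and the TIPARP window 2 matches. GCGTG is a short motif: 36.5% of 35116 promoters of this length hold it, as do 7 of the 9 promoters of the AhR list that were matched by symbol, and 15 of 18 of the cholesterol list used further on. TGACNNNGC is in 13.3% of all promoters and in 5 of 18 of the NRF2 list, and the GCLM window holds 1 match at 34 bases before the start site. These matches describe letters in the reference and are not binding sites measured here.

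Targets of AhR were mostly higher at the high dose, and the steepest of them was CYP1A1. CYP1A1 (ENSG00000140465, chromosome 15), which oxidises aromatic hydrocarbons, had 10, 16 and 6 counts in the vehicle libraries and 149, 108 and 104 at the high dose. Its level was 0.342, 0.534 and 0.245 CPM in the vehicle and 4.53, 3.58 and 3.10 CPM at the high dose. All 3 treated libraries lay far above all 3 vehicle libraries, by 3.28 ± 0.25 on the log2 scale (SE, n = 3 per group, edgeR adjusted p = 2.42e-11). At the low dose its mean was 0.280 ± 0.0305 CPM (SD, n = 3) and at the medium dose 0.492 ± 0.150, and neither passed the test against vehicle (edgeR adjusted p = 0.424 and 0.455). The high dose exceeded the low dose by 3.71 ± 0.25 on the log2 scale (edgeR adjusted p = 3.57e-12), and the offsets moved the difference from vehicle to 3.39.

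CYP1B1, the AhR-driven enzyme that oxidises estrogens and polycyclic hydrocarbons, had far more counts. It stood at 112, 116 and 113 CPM in the vehicle libraries and at 210.1, 204 and 206 CPM at the high dose, and the groups lay far apart. The difference was 0.86 ± 0.038 on the log2 scale (SE, edgeR adjusted p = 3.99e-17), and 0.77 with offsets. The low dose was 0.11 above vehicle, the medium dose 0.26, and the high dose was 0.75 above the low dose. Exons of CYP1B1 overlap those of RMDN2 and CYP1B1-AS1 on the opposite strand and of RMDN2-AS1 on the same strand. Whether the authors counted by strand is not given in the sources used here.

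ALDH3A1, an aldehyde dehydrogenase induced through AhR, stood at 1172, 1134 and 1060 CPM in the vehicle libraries and at 1668, 1676 and 1602 CPM at the high dose. It was 0.56 ± 0.045 above vehicle on the log2 scale (SE, edgeR adjusted p = 9.00e-11) and 0.80 above with offsets. At the low dose its mean of 987.9 CPM was below that of vehicle without offsets, by −0.18 on the log2 scale (edgeR adjusted p = 0.00141). With offsets the high dose was 0.74 above the low dose, so low dose and vehicle then lay close together. The high-dose and vehicle libraries did not overlap, and the order of mean CPM was low, vehicle and medium close together, then high.

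The receptor's own brakes rose as well. TIPARP, which modifies and inactivates AhR, was at 25.1, 25.3 and 27.6 CPM in the vehicle libraries and at 38.1, 34.7 and 36.1 CPM at the high dose, a difference of 0.48 ± 0.053 on the log2 scale (SE, edgeR adjusted p = 3.66e-08), 0.36 with offsets and 0.29 above the low dose. AHRR, the AhR repressor, rose from 1.87 ± 0.260 to 3.29 ± 0.369 CPM (SD, n = 3; 0.82 on the log2 scale, edgeR adjusted p = 9.26e-05), although its high dose did not pass the test against the low dose (edgeR adjusted p = 0.288). NFE2L2 itself and NQO1, a quinone reductase, which are targets of both AhR and NRF2, were 0.30 and 0.28 above vehicle. Of the 11 AhR targets tested, 7 were higher than vehicle and 1 lower at the high dose, with a median of 0.30 against 0 over all genes. The medium dose gave 6 higher and 2 lower (median 0.24), and the low dose 6 higher and 3 lower (median 0.15). The member below vehicle at the high dose was ALDH3B1, at −0.30, and with offsets it stood at −0.06 and was not called (edgeR adjusted p = 0.236). With offsets 8 were higher and 0 lower. Against the low dose 5 were higher and 1, ALDH3B1, was lower at −0.13, a call that was lost without high-dose replicate 1 or 2 or without any low-dose library (edgeR adjusted p = 0.0501 to 0.177).

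NRF2 targets were also mostly above vehicle. Of 25 tested, 16 were higher and 1 lower, with a median of 0.19, and with offsets 16 were higher and 0 lower. The genes with the smallest p-values were those of glutathione synthesis. GCLM, the regulatory subunit of glutamate-cysteine ligase, was at 113, 116 and 112 CPM in the vehicle libraries and at 174.1, 174.6 and 174.1 CPM at the high dose. The 3 treated libraries were almost identical, and the difference was 0.62 ± 0.042 on the log2 scale (SE, edgeR adjusted p = 3.20e-12) and 0.40 with offsets. The low dose was at 133.5 ± 4.78 CPM (SD, n = 3) and the medium dose at 144.9 ± 4.69, so the means followed the order of the doses.

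SLC7A11, which imports the cystine that glutathione synthesis needs, was at 90.5, 92.9 and 103.8 CPM in the vehicle libraries and at 151, 154 and 157 CPM at the high dose. The difference was 0.69 ± 0.052 on the log2 scale (SE, edgeR adjusted p = 2.42e-11) and 0.46 with offsets. GCLC, the catalytic subunit of the ligase, rose from 191 ± 2.76 to 254.5 ± 5.01 CPM (SD, n = 3), by 0.41 on the log2 scale and 0.32 with offsets. All 3 genes were also above the low dose, by 0.38, 0.26 and 0.25 on the log2 scale. ME1, which makes NADPH, and TXNRD1, thioredoxin reductase, were 0.42 and 0.29 above vehicle, but 0.12 and 0.08 above the low dose without passing that test.

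HMOX1, the heme oxygenase, moved in opposite directions at the ends of the dose range in the fit without offsets. It was at 50.2, 57.6 and 51.7 CPM in the vehicle libraries and at 69.2, 65.5 and 67.1 CPM at the high dose, while the low dose had a mean of 45.1 ± 1.51 CPM (SD, n = 3). The high dose was 0.34 ± 0.053 above vehicle on the log2 scale (SE, edgeR adjusted p = 7.38e-06), the low dose −0.24 from it (edgeR adjusted p = 0.000688), and the high dose 0.58 above the low dose (edgeR adjusted p = 4.34e-09). With offsets the high dose of HMOX1 was 0.55 above vehicle and 0.57 above the low dose, so low dose and vehicle then lay close together. The ferritin chains FTH1 and FTL, which store iron, were 0.26 and 0.24 above the low dose on the log2 scale, and the call of FTL was lost without high-dose replicate 1 or low-dose replicate 2 or 3 (edgeR adjusted p = 0.0597 to 0.0794). FTH1 was 0.17 above vehicle, a call lost without vehicle replicate 3 (edgeR adjusted p = 0.105), while FTL stood 0.01 from vehicle and was called with offsets alone (0.20, edgeR adjusted p = 0.00372). OSGIN1 was the NRF2 target below vehicle, at −0.43, and with offsets it was not called (−0.10, edgeR adjusted p = 0.123). Against the low dose, 10 of the 25 NRF2 targets were higher and 0 lower, where 1.46% of all genes were higher.

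**Figure D2:**
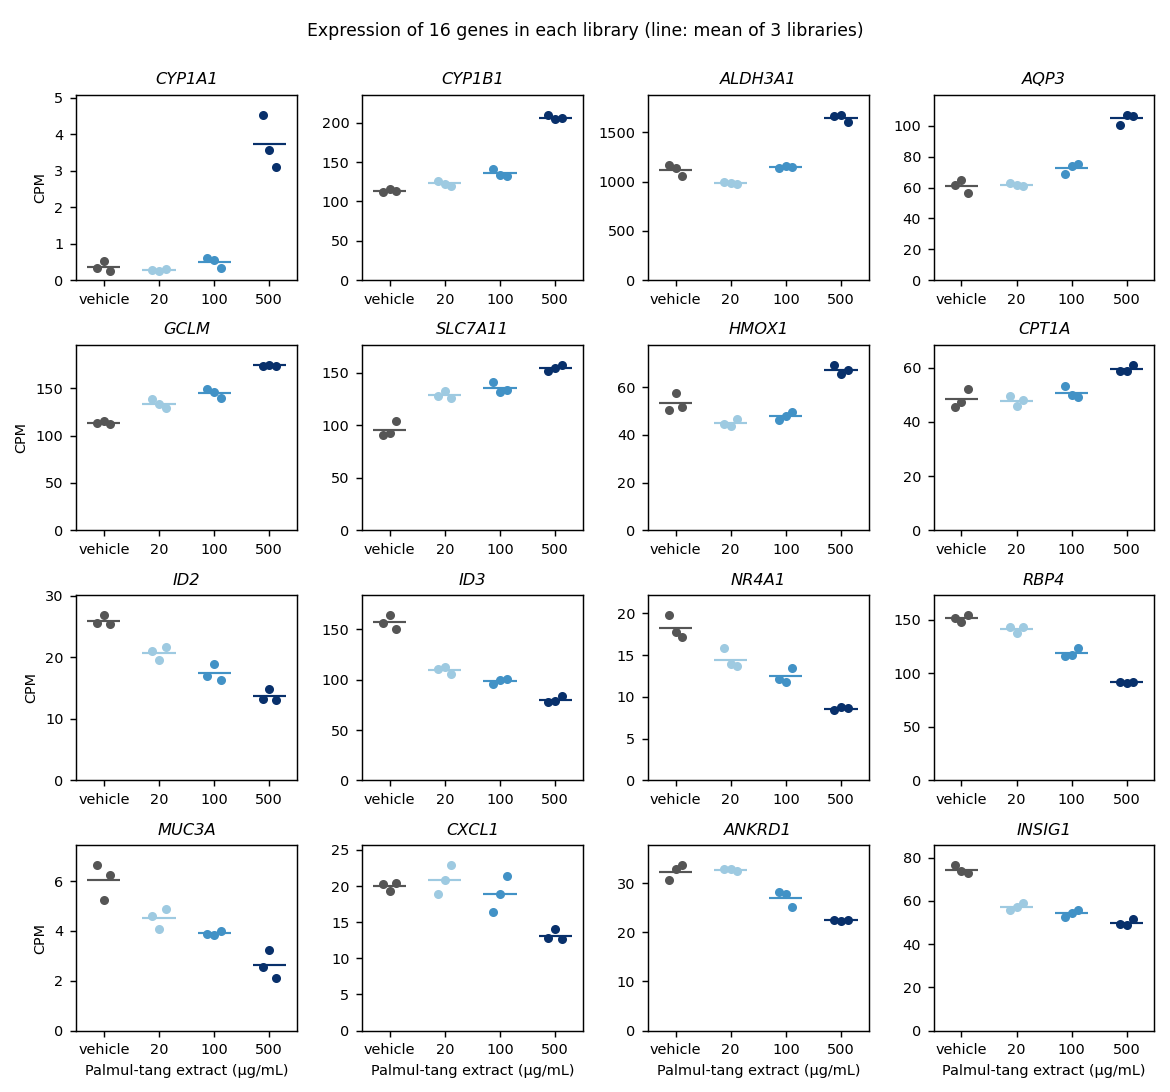
CPM (vertical axes, from 0) of 16 genes in each of 3 libraries per group (points) with the group mean (line), for vehicle and for Palmul-tang extract at 20, 100 and 500 µg/mL (horizontal axes). CYP1A1 stands at 3.10 to 4.53 CPM in the high-dose libraries and at 0.245 to 0.599 in the vehicle, low and medium libraries, which overlap each other, and NR4A1, ID2, ID3 and RBP4 are lowest at the high dose.

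AQP3, a channel for water, glycerol and hydrogen peroxide, was, with CYP1B1 and ALDH3A1, among the 3 largest rises from the low to the high dose of called genes with a mean log2 CPM of 2 or more and groups that did not overlap. It was at 61.7, 64.7 and 56.6 CPM in the vehicle libraries and at 100.8, 107 and 107 CPM at the high dose. The treated libraries were all above the vehicle libraries, by 0.78 ± 0.048 on the log2 scale (SE, edgeR adjusted p = 2.89e-13), and by 0.97 with offsets. Its low dose, at 61.9 ± 0.926 CPM (SD, n = 3), was 0.02 from vehicle, and the high dose was 0.76 above the low dose (edgeR adjusted p = 4.27e-13).

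Enzymes that conjugate or oxidise foreign compounds outside the AhR list were more often above vehicle than below. Of 25 other cytochrome P450 and phase II genes, 12 were higher and 2 lower (median 0.17), and with offsets 12 were higher and 0 lower. UGT1A1, which couples bilirubin and flavonoids to glucuronic acid, was at 23.9, 23.4 and 23.0 CPM in the vehicle libraries and at 34.9, 33.4 and 33.6 CPM at the high dose, a difference of 0.54 ± 0.059 on the log2 scale (SE, edgeR adjusted p = 3.26e-08), 0.48 with offsets and 0.30 above the low dose. Its exons are shared with other UGT1A genes, so the reads are divided among them by estimation. CYP3A5, a drug-metabolising P450, rose from 16.5 ± 1.23 to 25.9 ± 1.17 CPM (SD, n = 3), but the low dose was as high, at 25.7 ± 2.74 CPM. CYP4F3, which inactivates leukotriene B4, rose by 0.33 against vehicle and by 0.26 against the low dose, and MGST1, a microsomal glutathione transferase, by 0.39 against vehicle with 0.03 between doses.

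ABC transporters, which export drugs and conjugates, gave 5 of 10 members higher than vehicle and 0 lower, and 6 and 0 with offsets. ABCC2, the exporter of glutathione and glucuronide conjugates, was 0.29 above vehicle at the high dose and 0.22 above it at the low dose. ABCG2, the breast cancer resistance protein, was 0.31 above vehicle, and ABCA12, a lipid transporter, 0.49. Between the high and the low dose 0 of the 10 were called by the edgeR test.

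Of 14 genes of fatty acid oxidation and of the PPAR receptors, 10 were higher than vehicle and 0 lower, with a median of 0.26, and 10 were higher and 0 lower with offsets, when 9.57% of all genes were higher. CPT1A, which admits fatty acids to mitochondria, was at 45.5, 47.1 and 52.2 CPM in the vehicle libraries and at 58.8, 58.9 and 60.9 CPM at the high dose. It was 0.30 ± 0.048 above vehicle on the log2 scale (SE, edgeR adjusted p = 8.26e-06) and 0.32 above the low dose, where its mean was 47.8 CPM against 48.3 in the vehicle. PLIN2, the coat of lipid droplets, behaved likewise, at 0.35 above vehicle and 0.24 above the low dose. PDK4, which turns off pyruvate oxidation, was 0.36 above vehicle and 0.02 above the low dose. CPT1A and PLIN2 were the only members of the 14 called between the high and the low dose.

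Of 24 genes of cholesterol synthesis and uptake, 12 were lower than vehicle, 2 were higher and 10 were not called (median −0.09), and with offsets 9 were lower and 3 higher. INSIG1, the sterol-regulated brake on SREBP processing, was at 76.5, 74.0 and 72.9 CPM in the vehicle libraries and at 49.4, 48.6 and 51.6 CPM at the high dose. It was lower in all 3 treated libraries, by −0.58 ± 0.042 on the log2 scale (SE, edgeR adjusted p = 1.31e-11) and by −0.63 with offsets.

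MVD, a mevalonate pathway enzyme, was −0.65 from vehicle on the log2 scale and −0.32 with offsets. INSIG1 and MVD were also below vehicle at the low dose, at −0.38 and −0.49, and INSIG1 was lower at the high than at the low dose. HMGCS1, HMG-CoA synthase, was 0.12 above vehicle at the low dose and −0.13 from it at the high dose, a call lost without vehicle replicate 2 or 3 (edgeR adjusted p = 0.0623 and 0.0625). With offsets its high dose was −0.30 from vehicle and −0.25 from the low dose, so the low dose then did not lie above vehicle. Of 14 fatty acid synthesis genes, 6 were lower and 3 higher, and 5 and 1 with offsets. FASN, fatty acid synthase, was −0.53 from vehicle and −0.16 with offsets, and −0.18 from the low dose, which was lost without high-dose replicate 1 or low-dose replicate 1 or 3 (edgeR adjusted p = 0.0652 to 0.216). Among 24 cholesterol genes 5 were lower than at the low dose and 0 higher, and 3 were lower without high-dose replicate 2 or without low-dose replicate 1.

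Of 23 genes that answer BMP and TGF-beta signals, 13 were lower than vehicle, 2 were higher and 8 were not called (median −0.26). With offsets 6 were lower and 1 higher, and against the low dose 5 were lower and 3 higher. ID3, an inhibitor of DNA binding by bHLH factors and a direct BMP target, was at 157, 164 and 150.1 CPM in the vehicle libraries and at 77.6, 78.5 and 83.8 CPM at the high dose. The difference was −0.97 ± 0.051 on the log2 scale (SE, edgeR adjusted p = 3.87e-15), and −0.77 with offsets. ID2, its paralog, was at 25.5, 26.8 and 25.45 CPM in the vehicle libraries and at 13.23, 14.76 and 12.98 CPM at the high dose, −0.93 ± 0.068 from vehicle (SE, edgeR adjusted p = 1.31e-11) and −0.81 with offsets.

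Both genes followed the dose. ID3 had means of 109.4 and 98.5 CPM and ID2 of 20.8 and 17.4 CPM at the low and medium doses, and the high dose was below the low dose by −0.45 for ID3 and −0.61 for ID2 on the log2 scale. SMAD6, the inhibitory SMAD that BMP signals induce, fell from 16.2 ± 0.351 to 9.43 ± 0.762 CPM (SD, n = 3), by −0.78 on the log2 scale. It was −0.35 from the low dose, a call lost without high-dose replicate 1 or low-dose replicate 3 (edgeR adjusted p = 0.0844 and 0.0589). ID1 was −0.35 from vehicle, and with offsets it was not called (−0.12, edgeR adjusted p = 0.268). Median GC content in this list was 55.4%, against 48.6% over all genes tested.

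Of 29 immediate early and MAPK feedback genes, 14 were lower than vehicle and 2 higher, and 7 and 2 with offsets. NR4A1, an orphan nuclear receptor induced within minutes by growth signals, was at 19.8, 17.8 and 17.2 CPM in the vehicle libraries and at 8.39, 8.75 and 8.66 CPM at the high dose. The treated libraries lay within a narrow band below all vehicle libraries, by −1.09 ± 0.075 on the log2 scale (SE, edgeR adjusted p = 3.64e-12) and by −0.85 with offsets. The high dose was −0.75 from the low dose (edgeR adjusted p = 4.14e-08). SPRY4, a feedback inhibitor of receptor tyrosine kinases, was −0.48 from vehicle and −0.41 from the low dose, whereas EREG, an EGF receptor ligand, was 0.46 above vehicle. EREG was 0.30 above the low dose, which did not pass without high-dose replicate 1 or 2 or low-dose replicate 1 (edgeR adjusted p = 0.0507 to 0.061).

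Cytoskeletal genes and targets of YAP, a transcriptional coactivator that responds to cell shape and tension, had no member called above vehicle. Of 22 tested, 16 were lower and 0 higher (median −0.30), and with offsets 8 were lower and 0 higher (median −0.10). ANKRD1, a YAP target, was at 30.6, 32.8 and 33.6 CPM in the vehicle libraries and at 22.5, 22.3 and 22.6 CPM at the high dose, a difference of −0.53 ± 0.057 on the log2 scale (SE, edgeR adjusted p = 2.91e-08) and −0.63 with offsets. Its low dose, at 32.7 ± 0.228 CPM (SD, n = 3), was level with vehicle, and the high dose was −0.54 from it. CCN2, another YAP target, fell by 0.46 against vehicle and by 0.43 against the low dose.

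TPM1, a tropomyosin of actin filaments, fell from 218 ± 0.912 to 157 ± 2.22 CPM (SD, n = 3), by −0.47 on the log2 scale and −0.53 with offsets, and was −0.32 from the low dose. ACTB, cytoplasmic actin, was −0.30 from vehicle and −0.15 with offsets. ZYX and FLNA, which sit at focal adhesions and on actin networks, were −0.53 and −0.32 from vehicle and were not called with offsets (edgeR adjusted p = 0.111 and 0.759). The median GC content in this list was 53.4%.

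Genes of the NF-kB pathway and chemokines were lower in 12 of 23 cases and higher in 2 (median −0.23), and 7 and 2 with offsets. CXCL1, a neutrophil chemokine, was at 20.3, 19.3 and 20.5 CPM in the vehicle libraries and at 12.7, 14.0 and 12.7 CPM at the high dose. It was −0.61 ± 0.081 from vehicle on the log2 scale (SE, edgeR adjusted p = 6.56e-07), −0.65 with offsets and −0.67 from the low dose, which was level with vehicle at 20.9 CPM. RELB, an NF-kB subunit, fell from 9.49 ± 0.232 to 5.43 ± 0.323 CPM (SD, n = 3), but its low dose was at 5.58 ± 0.582 CPM. NFKB2 was −0.34 from vehicle and was not called with offsets (−0.04). SOD2, the mitochondrial superoxide dismutase, was −0.29 from vehicle and −0.27 from the low dose. Against the low dose 6 of the 23 genes were lower and 0 higher, and 3 were lower without high-dose replicate 3.

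**Figure D3:**
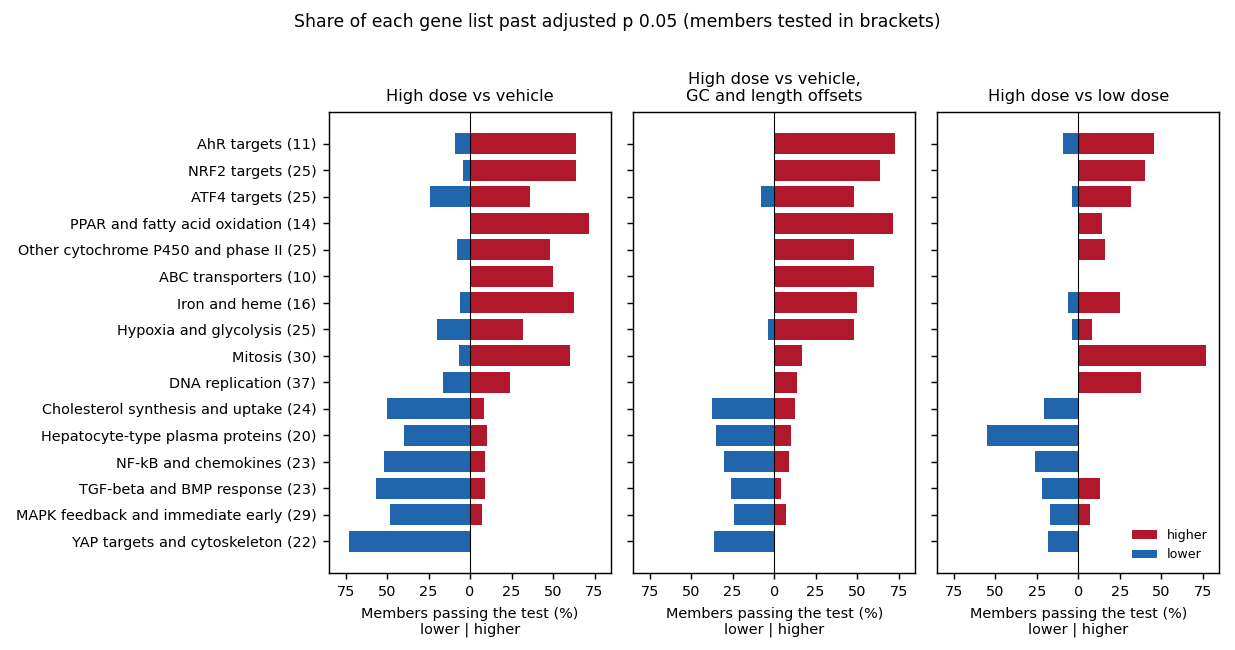
Share in percent of tested members (horizontal axes; higher to the right, lower to the left) of 16 gene lists past an adjusted p of 0.05 in the high dose against vehicle, the same with GC and length offsets, and the high dose against the low dose. Over all genes 19.0% were higher and 18.1% lower in the first panel, 9.57% and 6.22% in the second, and 1.46% and 2.02% in the last, and the bars for mitosis are short in the second panel (5 of 30 genes) and long in the last (23 of 30).

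Genes of mitosis and DNA replication gave different pictures by dose. Of 30 mitosis genes, 18 were higher than vehicle at the high dose and 2 lower (median 0.17), while at the low dose 1 was higher and 11 lower (median −0.05). The high dose was above the low dose in 23 of the 30 and below it in 0 (median 0.22). TOP2A, the topoisomerase of dividing cells, was at 239, 254.5 and 269 CPM in the vehicle libraries and at 349, 324 and 328 CPM at the high dose, a difference of 0.39 ± 0.050 on the log2 scale (SE, edgeR adjusted p = 3.20e-07). TTK, a spindle checkpoint kinase, and KIF11, the spindle motor, were 0.44 and 0.29 above vehicle.

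The mitosis list is poor in GC, with a median of 43.2%. With offsets 5 of its genes were higher than vehicle and 0 lower (median 0.08), where 9.57% of all genes were higher. KIF11 then stood at 0.09 and was not called (edgeR adjusted p = 0.139), and TOP2A and TTK were at 0.20 and 0.28 and were called. With offsets 25 mitosis genes were higher at the high than at the low dose. The difference between doses depended on single libraries: without high-dose replicate 1 9 of the 30 genes were higher than at the low dose, 14 without low-dose replicate 2 and 11 without low-dose replicate 3. AURKB, the kinase of the chromosomal passenger complex, was −0.26 from vehicle at the high dose, where it was not called with offsets (−0.09, edgeR adjusted p = 0.267), and −0.51 at the low dose.

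Of 37 DNA replication genes, 9 were higher than vehicle and 6 lower at the high dose, and 1 higher and 16 lower at the low dose. The share called at the high dose, 40.5%, was near the 37.1% over all genes tested. With offsets 5 were higher and 0 lower at the high dose by the edgeR test, where 9.57% and 6.22% of all genes were. PRIM1, the primase subunit, was at 14.2, 13.9 and 14.8 CPM in the vehicle libraries and at 21.7, 19.9 and 18.7 CPM at the high dose, 0.50 ± 0.064 above on the log2 scale (SE, edgeR adjusted p = 4.18e-07) and 0.35 with offsets. It was 0.29 above the low dose, and 0.24 without high-dose replicate 1 (edgeR adjusted p = 0.0549). CDT1, which loads the helicase, was −0.47 from vehicle and was not called with offsets (−0.12, edgeR adjusted p = 0.18). High against low gave 14 higher and 0 lower, while it gave 3 without high-dose replicate 1, 9 without high-dose replicate 3, 6 without low-dose replicate 2 and 5 without low-dose replicate 3. Without vehicle replicate 1, 5 replication genes were higher than vehicle.

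Plasma proteins that hepatocytes secrete, and that A549 cells also transcribe, had the opposite dose pattern. At the low dose 12 of 20 genes were higher than vehicle and 0 lower (median 0.36), and at the high dose 2 were higher and 8 lower (median −0.18), or 2 and 7 with offsets. The high dose was below the low dose in 11 of the 20 and above it in 0 (median −0.38), where 2.02% of all genes were lower. Summed over the list, the level was 2960 to 3140 CPM in the vehicle libraries and 2860 to 2990 at the high dose. Of the 25 genes of the list, APOA2 had no count in either group and TTR none at the high dose.

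RBP4, which carries retinol in plasma, was the member with the smallest p-value. It was at 151.5, 148 and 154 CPM in the vehicle libraries and at 91.9, 91.4 and 92.2 CPM at the high dose, a difference of −0.72 ± 0.045 on the log2 scale (SE, edgeR adjusted p = 3.03e-13) and −0.51 with offsets. The low dose, at 141.7 ± 2.98 CPM (SD, n = 3), did not pass the test against vehicle (edgeR adjusted p = 0.0959), and the medium dose was at 118.8 ± 3.99. HP, haptoglobin, was at 3.13 ± 0.713 CPM in the vehicle, 4.58 ± 0.149 at the low dose and 1.76 ± 0.159 at the high dose (SD, n = 3).

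The fibrinogen chains FGA and FGB were at 957 and 843.5 CPM in the vehicle, at 1121 and 989.9 at the low dose and at 864 and 759 at the high dose. Each was 0.23 above vehicle at the low dose, −0.15 from it at the high dose and −0.38 between doses, on the log2 scale. APOB, the scaffold of LDL, was 0.47 above vehicle at the low dose, −0.49 from it at the high dose and −0.96 between doses (edgeR adjusted p = 4.77e-06). KNG1, kininogen, was −0.78 between doses, but its high dose did not differ from vehicle by the test (−0.16, edgeR adjusted p = 0.173) unless offsets were used (−0.30, edgeR adjusted p = 0.0189). CP, ceruloplasmin, was above vehicle at both doses, by 0.64 at the low and 0.48 at the high dose.

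**Figure D4:**
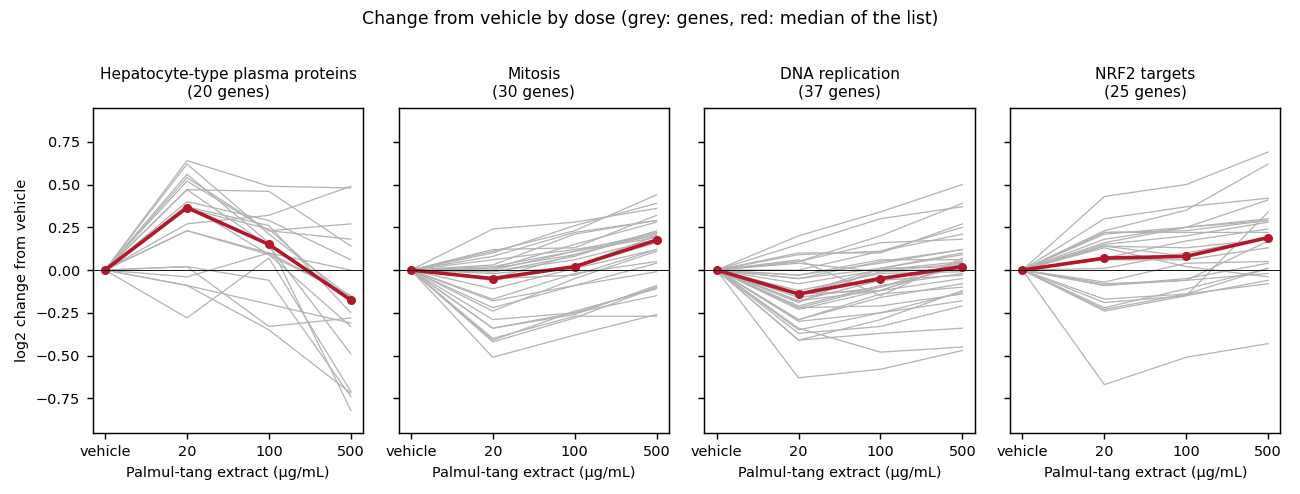
Log2 change from vehicle (vertical axis) of each gene (grey) and its median (red) in 4 lists, for vehicle and Palmul-tang extract at 20, 100 and 500 µg/mL (horizontal axes). The median of hepatocyte-type plasma proteins runs 0.36, 0.15 and −0.18 from the low to the high dose, that of mitosis −0.05, 0.02 and 0.17, that of DNA replication −0.14, −0.05 and 0.02, and that of NRF2 targets 0.07, 0.08 and 0.19.

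Genes called in opposite directions against vehicle at the low and the high dose, and called between doses, were few among genes with a symbol and a mean log2 CPM of 2 or more over all libraries. These calls are from the fit without offsets. Higher at the high dose and lower at the low dose were 6 genes, among them ALDH3A1, HMOX1, NOTCH3, PHGDH and PTTG1. NOTCH3, a Notch receptor, was at 43.9, 37.2 and 36.9 CPM in the vehicle libraries and at 45.3, 47.7 and 44.7 CPM at the high dose, and its low dose had a mean of 30.4 ± 3.23 (SD, n = 3). It was 0.22 above vehicle, a call lost without vehicle replicate 2 or 3 (edgeR adjusted p = 0.0525 and 0.0517), and with offsets it was 0.54 above. Lower at the high dose and higher at the low dose were 16 genes, among them STC1, PGC, FN1, GPX3, SLC39A8 and the plasma proteins APOB, FGA, FGB and SERPINA1. Calls against vehicle were lost for PHGDH without high-dose replicate 1 or 3 or vehicle replicate 1 or 2 (edgeR adjusted p up to 0.202), for PTTG1 without high-dose replicate 1 (0.135) and for SERPINA1 without high-dose replicate 3 or vehicle replicate 1 (up to 0.108). They were lost for FN1 without high-dose replicate 3 or vehicle replicate 1 or 3 (up to 0.133 by edgeR), and for GPX3 without high-dose replicate 2 or 3 or vehicle replicate 1 or 2 (up to 0.176). With offsets PGC at −0.17, SERPINA1 at −0.21 and GPX3 at 0.04 were not called against vehicle either (edgeR adjusted p = 0.184, 0.238 and 0.756). With offsets the high dose of ALDH3A1, HMOX1, FN1 and SLC39A8 was 0.80, 0.55, −0.29 and −0.25 from vehicle. From the low dose it was 0.74, 0.57, −0.31 and −0.28, so low dose and vehicle then lay close together. For STC1, APOB, FGA and FGB the values were −0.45, −0.57, −0.26 and −0.29 from vehicle. From the low dose they were −0.67, −0.91, −0.37 and −0.40, so the low dose stayed above vehicle.

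Of 25 targets of ATF4, the factor of the integrated stress response, 9 were higher than vehicle and 6 lower, and with offsets 12 and 2. This list is rich in GC, with a median of 56.7%. ASNS, asparagine synthetase, was at 28.6, 33.5 and 31.3 CPM in the vehicle libraries and at 48.4, 42.4 and 45.8 CPM at the high dose, 0.55 ± 0.056 above on the log2 scale (SE, edgeR adjusted p = 9.74e-09) and 0.36 above the low dose. PSAT1, in serine synthesis, was 0.45 above vehicle. NUPR1, a stress-induced chromatin protein, was −0.53 from vehicle, −0.49 with offsets and −0.38 from the low dose, and ATF5 was −0.66 and −0.41 with offsets.

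Iron and heme genes were higher in 10 of 16 cases and lower in 1, and with offsets in 8 and 0. FECH, which inserts iron into heme, was 0.31 above vehicle and IREB2, an iron sensor of mRNA, 0.35. SLC40A1, the iron exporter ferroportin, was 0.28 above vehicle but −0.28 from the low dose, where its mean was 61.1 ± 0.365 CPM (SD, n = 3) against 50.4 ± 1.13 at the high dose. Of 25 hypoxia and glycolysis genes, 8 were higher and 5 lower, and with offsets 12 and 1. Without high-dose replicate 3, 5 of those 25 were higher. LDHA, lactate dehydrogenase, rose from 1787 ± 43.0 to 2282 ± 122 CPM (SD, n = 3), by 0.35 on the log2 scale and 0.26 with offsets, and P4HA1, a collagen prolyl hydroxylase, was 0.48 above vehicle at the high dose and 0.45 at the low dose.

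Of 22 interferon-stimulated genes 31.8% were called against vehicle, near the 37.1% over all genes tested. They were 5 higher and 2 lower, and 4 and 2 with offsets, and 3 were higher without any 1 of high-dose replicate 1, vehicle replicate 1 and vehicle replicate 3. IFIT1, an RNA-binding antiviral protein, was at 21.6, 25.0 and 23.6 CPM in the vehicle libraries and at 38.6, 34.3 and 37.9 CPM at the high dose, 0.66 ± 0.059 above on the log2 scale (SE, edgeR adjusted p = 7.99e-10) and 0.53 with offsets. ISG20, an exonuclease, was −0.58 from vehicle. Of 24 p53 targets 45.8% were called, against 37.1% over all genes tested: 6 were higher and 5 lower. With offsets 8 were higher and 0 lower by the edgeR test. CCNG1, RRM2B and SESN1 were 0.41, 0.45 and 0.55 above vehicle, and at the low dose the same 3 genes were 0.38, 0.40 and 0.47 above it.

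The 10 largest rises among called genes with a symbol, a mean log2 CPM of 2 or more and no overlap between the groups came mostly from genes outside the lists. They were those of the pseudogenes RPL7AP6 and RPSAP15, the histone gene H4C15, the non-coding LINC00886, GRHL3, PPM1E, BEST1, CREBRF and RFX3, beside CYP1B1. GRHL3, an epidermal transcription factor, was at 3.59, 3.14 and 3.71 CPM in the vehicle libraries and at 6.30, 7.53 and 5.64 CPM at the high dose, 0.90 ± 0.11 above on the log2 scale (SE, edgeR adjusted p = 2.75e-07), and it was 0.47 above the low dose, though not past the test without high-dose replicate 2 or low-dose replicate 3 (edgeR adjusted p = 0.0746 and 0.0542). CREBRF and RFX3 were at least as high at the low dose, 0.93 and 0.86 above vehicle against 0.79 and 0.78 at the high dose. The pseudogenes share reads with their parent genes, and exons of BEST1 overlap those of FTH1 on the opposite strand. H4C15 lost its call with offsets (edgeR adjusted p = 0.0714) and without high-dose replicate 1 or 3 or vehicle replicate 1 or 3 (0.68 to 1.28 on the log2 scale, edgeR adjusted p = 0.0647 to 0.125).

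The 10 largest falls by the same rule, which leaves out genes without a symbol, were those of CXCR5, RN7SL1, RN7SL2, 7SK, MUC3A, KRT16, CITED4 and HES4, beside NR4A1 and ID3. MUC3A, a membrane mucin, was at 6.63, 5.24 and 6.24 CPM in the vehicle libraries and at 2.56, 3.25 and 2.12 CPM at the high dose, −1.20 ± 0.14 on the log2 scale (SE, edgeR adjusted p = 7.78e-08), −1.10 with offsets and −0.78 from the low dose. KRT16, a keratin of stressed epithelium, was −1.13 from vehicle and −0.66 from the low dose. HES4, a Notch effector, was −0.94 from vehicle and was not called with offsets (−0.36, edgeR adjusted p = 0.198). CXCR5, a chemokine receptor of B cells, was estimated at 740, 1136 and 449 counts in the vehicle libraries and at 0, 142 and 0 at the high dose. Such jumps between replicates also occurred at the low dose (159, 41 and 0 counts), its exons overlap BCL9L on the opposite strand, and its call was lost with DESeq2 (adjusted p = 0.248) and without high-dose replicate 1 or 3 (edgeR adjusted p = 0.0619 and 0.0577).

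Among these falls were RN7SL1, RN7SL2 and 7SK, structural RNAs made by RNA polymerase III, which were below vehicle at all 3 doses of Palmul-tang and were grouped once their values had been seen. RN7SL1, the RNA of the signal recognition particle, was at 31.6, 21.9 and 21.4 CPM in the vehicle libraries and at 7.36, 9.32 and 10.9 CPM at the high dose, −1.45 ± 0.27 on the log2 scale (SE, edgeR adjusted p = 0.00035), and at the low and medium doses it was −1.0 and −1.33 from vehicle. RN7SL2, a nearly identical copy with which it shares reads, was −1.46 and 7SK, which restrains transcription elongation, −1.21 from vehicle. Exons of 7SK overlap those of RN7SK on the same strand, so its reads are divided by estimation. Non-coding genes on the short arm of chromosome 21, where ribosomal RNA genes lie, carry no symbol and fell further, 3 of them by −2.22 to −1.99 on the log2 scale. All 3 had the same 1152 and 1199 CPM in vehicle replicates 2 and 3 and the same 342.5 CPM in high-dose replicate 3. They do not count as 3 separate measurements. Of these ENSG00000281181 (GRCh38, chromosome 21, 8437629 to 8438551) was at 1159, 1152 and 1199 CPM in the vehicle libraries and at 192.5, 218.5 and 342.5 CPM at the high dose, and at 263 ± 54.4 CPM (SD, n = 3) at the low dose. These chromosome 21 genes were picked once their values had been seen. With offsets RN7SL1, RN7SL2, 7SK and ENSG00000281181 were −1.06, −1.08, −0.94 and −2.07 from vehicle and stayed called (edgeR adjusted p = 0.00757 to 0.0443). ENSG00000281181 was also at 1101 CPM, near the vehicle libraries, in replicate 2 of Samul-tang at its high dose, but at 296.2 CPM in replicate 3. Its level thus differed widely between libraries of the same treatment. In these Samul-tang libraries 7SK was at 5.98 and 9.798 CPM, against 7.01 to 9.877 CPM in the vehicle libraries. RN7SL1 was at 11.96 and 17.64 CPM there, and RN7SL2 at 11.71 and 20.56 CPM. The GC differences of the Samul-tang libraries were 0.02 and −0.04, among those of the extracts, and the cause was not tested.

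In absolute CPM the largest falls among genes with a symbol were in keratins: KRT81 from 3244 ± 215 to 2235 ± 106, KRT8 from 4321 ± 118 to 3420 ± 24.9 and KRT7 from 3612 ± 77.3 to 2713 ± 319 CPM (SD, n = 3). With offsets KRT81 and KRT8 were −0.24 and −0.17 from vehicle and KRT7 was not called (−0.10, edgeR adjusted p = 0.438). The largest rises were in MT-ND3, a mitochondrial subunit of complex I, FTH1 and EEF1A1, the elongation factor, at 0.36, 0.17 and 0.20 on the log2 scale. MT-ND3 was not called with offsets (edgeR adjusted p = 0.111), nor without vehicle replicate 3 or high-dose replicate 1 or 2 (edgeR adjusted p = 0.0768 to 0.12), and FTH1 was not called without vehicle replicate 3 (edgeR adjusted p = 0.105). Of these 6 genes, FTH1 alone was called between the high and the low dose by the edgeR test.

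The high dose of Samul-tang, whose herbs Palmul-tang contains, was given at the same 500 µg/mL and has 2 libraries. The labels put all libraries in 1 batch, but the library codes of Samul-tang, Palmul-tang and vehicle each begin differently. What the codes stand for is not given in the sources used here, so anything that went with them cannot be told apart from the treatments. Palmul-tang differed from it at 34 genes (0.192%), 10 higher (0.0565%) and 24 lower (0.136%). CYP1A1 was at 3.74 ± 0.727 CPM (SD, n = 3) with Palmul-tang and at 2.05 and 1.53 CPM in the 2 libraries of Samul-tang, a difference of 1.06 ± 0.21 on the log2 scale (SE, edgeR adjusted p = 0.0226), and the groups did not overlap. CYP1B1 was 0.19 higher with Palmul-tang (edgeR adjusted p = 0.0461), and ALDH3A1, also 0.19 higher, did not pass (edgeR adjusted p = 0.114).

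ID2, ID3, NR4A1 and RBP4 were lower with Palmul-tang than with Samul-tang, by −0.53, −0.33, −0.40 and −0.36 on the log2 scale. STC1, the secreted calcium regulator stanniocalcin, differed most among them: it was at 23.8 ± 0.601 CPM (SD, n = 3) with Palmul-tang, at 37.3 CPM in mean over the 2 libraries of Samul-tang and at 30.4 ± 1.97 CPM in the vehicle. TF, transferrin, was −0.60 from Samul-tang without differing from vehicle, and CPNE7, ZNF431 and EHBP1L1 were 0.49, 0.45 and 0.30 above it. ID2, RBP4 and STC1 stayed past the test whichever library was left out. ID3 was lost without Samul-tang replicate 2 (edgeR adjusted p = 0.215), CYP1A1 without either Samul-tang library or Palmul-tang replicate 1 (edgeR adjusted p = 0.0976 to 0.387), CYP1B1 and NR4A1 without any of the 5 libraries, and TF, CPNE7, ZNF431 and EHBP1L1 each without several. The count of 34 rested on single libraries: it was 8 without Samul-tang replicate 2, 6 without its replicate 3, and 21 and 19 without Palmul-tang replicate 1 and replicate 3. With offsets 52 genes (0.296%) were called, 20 higher (0.114%) and 32 lower (0.182%).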

How the data were processed

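RNA of A549 cells was sequenced as 100-base pairs from a directional library kit, per the labels' protocols. The values are expected counts per gene, estimated by the authors with RSEM 1.3.3 after STAR 2.7.3a, Trim Galore 0.6.5 and FastQC 0.11.9 on hg38, per the submitters' processing notes. The annotation release is not given in the sources used here. Of the deposited columns, 240 that match no sample of these labels were not used. Between 8.499% and 9.818% of values per library were not whole, and all were rounded.

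edgeR 4.0.16 (R 4.3.3) was run on all 30 libraries in 13 groups: filterByExpr, TMM factors (0.923 to 1.051), a quasi-likelihood fit (17 residual degrees of freedom, biological coefficient of variation 0.0496) and Benjamini-Hochberg adjustment over 17701 genes. A fold change is on the log2 scale of fitted counts, and its SE is its size divided by the square root of F. Symbols were matched for 41706 gene IDs and GENCODE 29 models for 57055. GC content and length of the longest transcript, for 17570 tested genes, gave the offsets, which were added after the libraries were seen to differ. DESeq2 1.42.0, other scalings and filters, thinned counts, a replicate block and the omission of each library were alternatives. The fits were tested on simulated counts.

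The members and the 46 gene lists (907 genes, 837 tested) were chosen with earlier results of these data known. Named genes, all with a symbol, are the 10 largest called changes each way with a mean log2 CPM of 2 or more and no overlap, the 3 largest CPM differences each way, the 4 smallest p-values in each list, and the 3 largest each way between extracts and doses. Other list members are named with their values. Some genes that the rule takes are not reported here.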

Additional observations from a re-analysis of the deposited data

Results flagged for a closer look

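Genes whose high and low doses lay on opposite sides of vehicle, each past the edgeR test with Benjamini-Hochberg adjustment and also called between the doses, and with a symbol and a mean log2 CPM of 2 or more, numbered 6 with the high dose above vehicle and 16 with the high dose below it. The difference between doses was itself tested for each of them, and no explanation was weighed. The calls are without offsets, and with offsets the low dose of some, such as ALDH3A1 and HMOX1, lay close to vehicle.

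The difference between the extracts at 500 µg/mL, Palmul-tang minus Samul-tang on the log2 scale, passed the edgeR test for 14 of the genes that the rule for named genes takes and that also differed from vehicle without offsets. Among metabolic enzymes of foreign compounds it was 1.06 for CYP1A1, 0.19 for CYP1B1 and 0.24 for CYP4F3. It was −0.53 for ID2, −0.33 for ID3 and −0.40 for NR4A1, the regulators that growth signals induce. The secreted proteins STC1 and RBP4 gave −0.65 and −0.36, and the membrane mucin MUC13 gave −0.38. ALDOA and ALDOC, the aldolases of glycolysis, gave −0.25 and −0.34, although ALDOA was lower and ALDOC higher than vehicle with Palmul-tang (ALDOA was not called with offsets, edgeR adjusted p = 0.0595). BIRC3, an inhibitor of apoptosis, gave 0.23, ZNF431, a zinc finger gene, 0.45 and CPNE7, a copine, 0.49. Samul-tang had 2 libraries here. With each library left out in turn, STC1, RBP4 and ID2 stayed past the test in every case and the others of these 14 did not.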

How the results depend on the processing

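Of 201 genes taken by the rule for named genes in the comparison with vehicle, 135 kept their side of the edgeR threshold and direction with GC and length offsets, 58 lost the call, 1 gained it and 7 changed sign. The 7 were POLD1 at 0.01, RPL8 at 0.11, RPS2 at 0.00, AKR7A2 at 0.03, APOE at 0.15, NOTCH1 at 0.06 and CPNE7 at 0.10, all below 0 without offsets. GPX3, named only for its opposite calls, also turned, from −0.16 to 0.04. With offsets 2774, 2631 and 2685 genes differed from vehicle at the high, medium and low dose, split as 1681 higher and 1093 lower, 1616 and 1015, and 1552 and 1133. DESeq2 kept 191 of 197 named genes, RLE factors 201 of 201, thinned counts 199, no filter 199, the fit on the compared groups alone 193 of 200, and the omission of each library in turn 182. For Palmul-tang high versus vehicle, 5210 to 6309 genes were called with a library left out.

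Palmul-tang high versus low gave 381 calls with only the groups compared (127 higher and 254 lower) and 351 to 591 with a library left out. Palmul-tang high versus Samul-tang high gave 69 with DESeq2, 52 with offsets, 130 without a filter, 19 with only the groups compared and 6 to 38 with a library left out. The cause was not tested. With the replicate block, 6688 genes were called for Palmul-tang high versus vehicle, 743 between high and low dose and 64 between extracts. The labels share replicate numbers only: deviations of same-numbered high and vehicle libraries correlated at −0.0598 to 0.0321. Depth limits genes such as CYP1A1, with 6 to 16 counts per vehicle library.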

Other observations

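Some gene groups of protein synthesis and turnover are not covered by the comparisons above. At most 2 members of each list below were called between the high and the low dose. With offsets fewer members of each were called against vehicle, and among splicing regulators the balance turned from higher to lower. Of 29 ribosome biogenesis genes, 13 were lower than vehicle and 5 higher, and with offsets 8 and 1. POLR1G, a subunit of RNA polymerase I, fell from 42.3 ± 2.13 to 30.6 ± 0.697 CPM (SD, n = 3). Of 20 aminoacyl-tRNA synthetases 7 were higher and 3 lower, and 7 and 0 with offsets, with NARS1 at 0.32 on the log2 scale. Of 29 proteasome subunits 12 were higher and 2 lower, and 3 and 1 with offsets, with PSMC6 at 0.46. At the low dose 6 of these subunits were higher than vehicle and 8 lower without offsets. Of 27 splicing regulators 12 were higher and 3 lower, and with offsets 2 were higher and 7 lower, in a list poor in GC with a median of 41.2%. Of 20 chaperones and stress sensors of the endoplasmic reticulum 10 were higher and 5 lower, and 1 and 2 with offsets.

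Of 13 mucins and gastric-type genes 3 were higher than vehicle and 4 lower, and 1 and 2 with offsets, and of 10 alveolar type II markers 0 were higher and 4 lower, and 1 and 1 with offsets. Called without offsets were 53.8% and 40.0% of these lists, against 37.1% over all genes tested. LPCAT1, which makes surfactant lipid, fell from 82.3 ± 0.485 to 72.0 ± 2.12 CPM (SD, n = 3) and was −0.18 from the low dose on the log2 scale, though with offsets it was not called against vehicle (edgeR adjusted p = 0.238), nor against the low dose without high-dose replicate 1 or low-dose replicate 3 (edgeR adjusted p = 0.0668 and 0.0554). MUC13, a membrane mucin, was at 22.8, 20.8 and 23.3 CPM in the vehicle libraries and at 16.9, 15.6 and 14.65 CPM at the high dose, −0.64 from the low dose. Of 9 metallothionein and zinc genes 3 were higher than vehicle and 2 lower, and 1 and 1 with offsets. At the medium dose 4 were higher and 0 lower without offsets, so the list did not fall as a group. MT1X, a metallothionein that binds zinc, fell from 97.1 ± 4.73 to 69.1 ± 3.54 CPM and was −0.43 from the low dose. The share of this list called at the high dose without offsets was 55.6%. Of 18 clock genes 4 were lower and 3 higher, and 5 and 2 with offsets. The share called without offsets, 38.9%, was near the 37.1% over all genes tested. DBP, a clock output factor, was −0.76 from vehicle and HLF, a relative of it, −0.49, while NFIL3, their antagonist, was 0.47 above vehicle.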
